A study of Mus musculus with 24 samples.

Results

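The granzymes are serine proteases and perforin is a pore-forming protein, and together they make up the cell-killing load of cytotoxic granules. The 10 genes described here were those with the symbols Gzma, Gzmb, Gzmc, Gzmd, Gzme, Gzmf, Gzmg, Gzmk, Gzmm and Prf1, out of 55385 genes in the deposited table. The family was selected on measured values: Gzmb and Gzmc were among the genes lowest in SH relative to NC, so that comparison is given as a description, with no test. RNA was sequenced from the mouse mast cell tumour line P815 in 8 groups of 3 libraries. SH_E2 cells carried a short hairpin RNA vector against Esr1, the gene of estrogen receptor alpha, and received β-estradiol (E2) for 24 h, and SH cells carried the hairpin vector with no E2. ICI_E2 cells received ICI-182780 (fulvestrant, an estrogen receptor degrader) with E2, and ICI cells received ICI-182780 with no E2. Tamo_E2 cells received tamoxifen, a selective estrogen receptor modulator, with E2, and Tamo cells received tamoxifen with no E2, in each case for 24 h. NC_E2 cells carried a negative control vector and received E2 for 24 h, and NC cells carried that vector with no E2. The labels give no doses, do not say whether the inhibitor arms carried a vector, and do not say how many hairpins were used. Nothing says that the 3 libraries of a group came from separate cultures, so the p-values measure the spread between these libraries, which may be technical.

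A granzyme is made as an inactive precursor, is activated when cathepsin C removes a short leader peptide, and is stored in acidic granules on the proteoglycan serglycin. After release, perforin opens the membrane of the attacked cell, and granzyme B cleaves caspases and Bid inside it. T cells and natural killer cells are the classical producers, and mast cells are also known to make granzyme B. In the mouse, Gzmb and its closest relatives lie in a chromosome 14 cluster beside the mast cell chymases and cathepsin G. Gzma and Gzmk lie on chromosome 13, and Gzmm and Prf1 lie on chromosome 10.

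The promoters of 4 genes are shown because the results turn on them: Gzmb and Gzmc were low in the hairpin arm, Gzmd is a silent neighbour with a promoter much like that of Gzmc, and Prf1 is the partner of the granzymes in killing. Each runs 5′ to 3′ on the gene's strand over 300 bases, 250 before and 50 after the RefSeq start (GRCm38.p6). Capitals mark matches, on either strand, to TGANTCA (bound by AP-1 factors), TGACGTCA (the cyclic AMP response element), its core GACGTCA, and TGTGGT or its reverse complement ACCACA (bound by RUNX factors). A match to TGACGTCA always contains the core.
Gzmb (chr14:56262285-56262584, minus strand): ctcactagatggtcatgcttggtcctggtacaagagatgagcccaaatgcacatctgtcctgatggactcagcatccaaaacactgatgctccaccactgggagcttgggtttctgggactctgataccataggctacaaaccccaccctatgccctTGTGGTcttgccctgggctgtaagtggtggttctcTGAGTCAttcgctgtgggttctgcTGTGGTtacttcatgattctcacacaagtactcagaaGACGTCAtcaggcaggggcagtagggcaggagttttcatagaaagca
Gzmc (chr14:56234608-56234907, minus strand): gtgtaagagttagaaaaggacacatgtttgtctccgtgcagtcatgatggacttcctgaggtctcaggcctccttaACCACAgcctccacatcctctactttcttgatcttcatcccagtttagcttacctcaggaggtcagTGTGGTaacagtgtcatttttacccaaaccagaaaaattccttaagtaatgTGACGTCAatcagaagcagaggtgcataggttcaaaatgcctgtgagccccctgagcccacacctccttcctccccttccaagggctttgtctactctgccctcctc
Gzmd (chr14:56132544-56132843, minus strand): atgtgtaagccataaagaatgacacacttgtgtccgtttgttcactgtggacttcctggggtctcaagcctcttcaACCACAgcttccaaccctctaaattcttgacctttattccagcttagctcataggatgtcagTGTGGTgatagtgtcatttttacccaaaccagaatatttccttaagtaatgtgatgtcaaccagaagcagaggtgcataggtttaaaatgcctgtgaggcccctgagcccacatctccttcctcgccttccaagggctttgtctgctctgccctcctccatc
Prf1 (chr10:61297586-61297885, plus strand): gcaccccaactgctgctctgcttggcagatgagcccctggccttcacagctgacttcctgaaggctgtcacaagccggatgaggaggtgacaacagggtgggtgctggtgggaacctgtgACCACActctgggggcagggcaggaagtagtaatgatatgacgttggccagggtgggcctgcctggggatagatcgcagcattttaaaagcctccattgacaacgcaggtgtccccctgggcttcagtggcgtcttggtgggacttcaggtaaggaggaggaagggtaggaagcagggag
The Gzmb promoter held TGAGTCA at positions -58 to -52 from the start, TGTGGT beginning at -93 and at -34, and GACGTCA at 4 to 10. The Gzmc promoter held TGACGTCA beginning at -57, the Gzmf promoter held it at -82 and the Gzmg promoter at -77. That run was not found in the windows of Gzmd and Gzme. Gzmc and Gzmd nevertheless had the same base at 86.1% of 294 aligned promoter positions, against 59.6% of 230 for Gzmb and Gzmc. Of 32851 mouse promoter windows, TGANTCA occurred in 7.81%, TGACGTCA in 1.79%, GACGTCA in 3.21% and TGTGGT in 16.8%. The palindromic estrogen response element was in 0.0700% of the windows and was not found in the window of any of the 10 genes. A match describes letters in a window and says nothing of binding.

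Gzmb and Prf1 were the abundant members in these cells, Gzmc was low, and the remaining 7 were scarce or absent. Levels are given as FPKM, read fragments scaled to transcript length and library size, which allows genes of different length to be compared. Libraries held 42.1 to 68.8 M estimated counts. A gene was tested where it reached 1 FPKM in at least 3 of the 24 libraries, which 12183 genes and 3 of the 10 members did: Gzmb, Gzmc and Prf1. Gzmc passed that filter only through libraries outside the hairpin arm, so no p is given for it in comparisons with the hairpin arm, and counts over the 3 are not read as support. In bulk RNA, fewer cells with a transcript and less of it per cell cannot be told apart. Of 17 mast cell markers, 16 reached 1 FPKM in some library and 14 could be tested. Kit, the stem cell factor receptor, ran from 98.3 to 174.5 FPKM over all libraries. Other mast cell markers were scarce: Fcer1a had at most 0.937 FPKM, Ms4a2 at most 1.203 FPKM and Tpsb2 at most 1.476 FPKM. Each of these was at 0 in some library. Of 19 T and natural killer cell markers, 2 reached 1 FPKM (Nkg7 and Lck), Cd2, Cd8b1, Trbc1, Trbc2 and Ncr1 were at 0 in every library, and Cd3e had at most 4 counts. The summed level of those markers was 2.11 to 6.10 FPKM in SH_E2 and 4.11 to 5.64 FPKM in NC_E2.

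**Figure D1:**
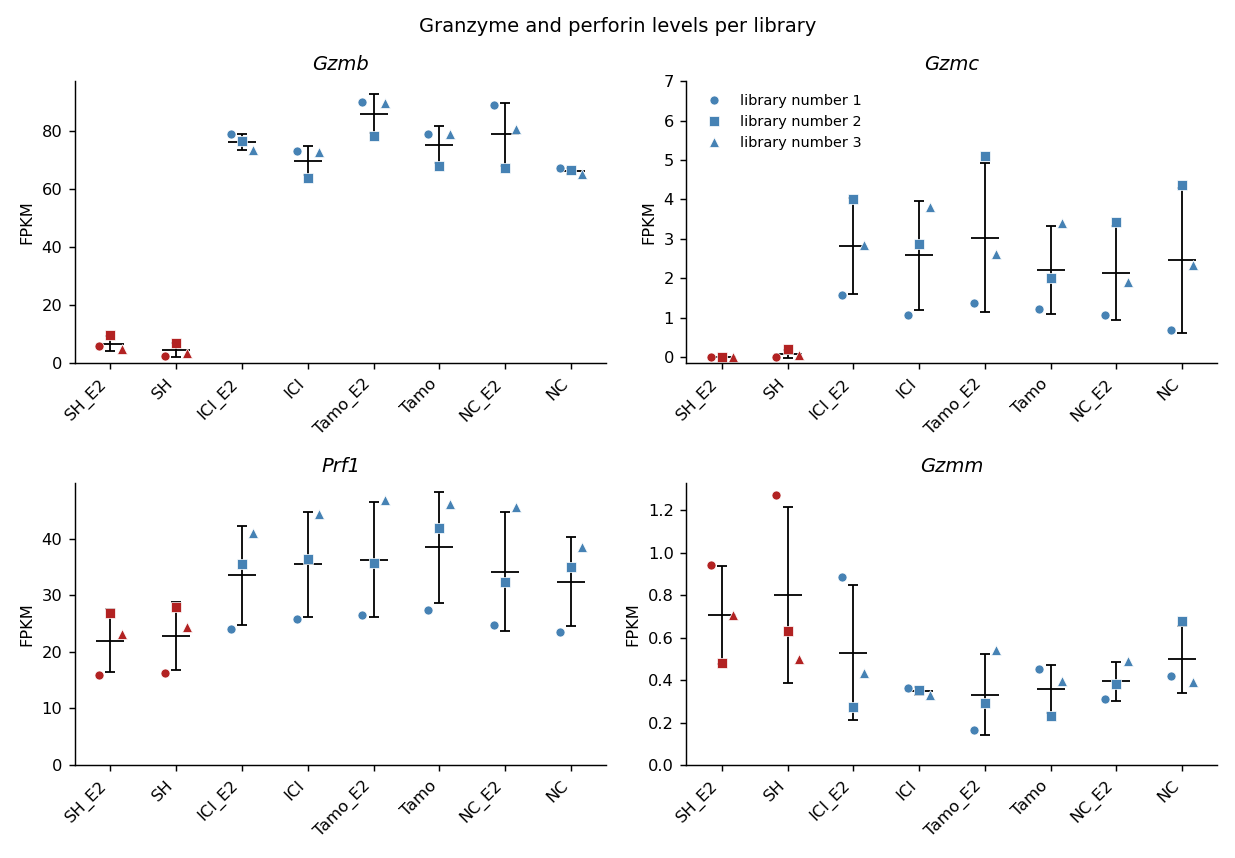
FPKM of Gzmb, Gzmc, Prf1 and Gzmm (linear axes) in each of the 8 groups. Each symbol is a library, its shape the library number, and the bars are the mean and SD of 3 libraries. Gzmb and Gzmc are near the bottom of their axes in SH_E2 and SH, and Prf1 is lowest in library 1 of every group.

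Esr1, the gene targeted by the hairpin, did not exceed 0.520 FPKM in any library and went down to 0.161. From low to high its SH_E2 libraries had 0.181, 0.210 and 0.254 FPKM, against 0.234, 0.319 and 0.389 FPKM in NC_E2, so the groups overlapped. Esr1 did not reach the level required for testing. SH is used below as the name the labels give.

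Gzmb (ENSMUSG00000015437, chromosome 14, 56258838 to 56262260, minus strand, 5 exons, GRCm38) encodes granzyme B, which triggers apoptosis by cleaving after aspartate. It had 5.95, 9.65 and 4.87 FPKM in the SH_E2 libraries, against 88.7, 67.1 and 80.4 FPKM in NC_E2. The groups were far apart, and SH_E2 held 6.71%, 14.4% and 6.05% of the NC_E2 level in libraries 1, 2 and 3. The log2 fold change was -3.57 ± 0.29 (SE, n = 3 each), or 11.9-fold lower in SH_E2 (edgeR quasi-likelihood, Benjamini-Hochberg adjusted p = 2.08e-07). By mean level among the 12183 tested genes, Gzmb ranked 6169 in SH_E2 and 670 in NC_E2. Of all tested genes, 9.59% passed in either direction at an adjusted p under 0.05, 4.28% lower and 5.3% higher in SH_E2. Gzmb was also lower in SH_E2 than in the mean of ICI_E2 and Tamo_E2, by a log2 difference of -3.62 ± 0.28 (edgeR adjusted p = 4.13e-08), a comparison in which 14.7% of genes passed. The same SH_E2 libraries enter both comparisons. They carried the hairpin vector of SH, and NC_E2 the vector of NC, the 2 groups by which the family was chosen. Neither p is therefore independent of that choice. In the second comparison the hairpin vector and the drugs differed together and cannot be told apart.

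Without E2, the comparison that chose the family, Gzmb had 2.57, 7.16 and 3.71 FPKM in SH and 67.1, 66.3 and 65.1 FPKM in NC, a log2 difference of -3.94 ± 0.29. In it 9.07% of genes passed, from which nothing is read about the members. The 6 libraries of the hairpin arm lay between 2.57 and 9.65 FPKM, and the other 18 between 63.8 and 89.8 FPKM. The order of the group means was Tamo_E2 (85.8 FPKM), NC_E2 (78.7), ICI_E2 (76.2), Tamo (75.2), ICI (69.7), NC (66.2), SH_E2 (6.82) and SH (4.48). Neighbours in that order overlapped, except NC and SH_E2. For Gzmb, the log2 hairpin effect with E2 minus that without E2 was 0.36 ± 0.37 (SE). No p is given for it, since the effect without E2 chose the family.

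Gzmc (ENSMUSG00000079186, chromosome 14, 56231441 to 56234656, minus strand, 5 exons) encodes granzyme C, a protease of activated mouse lymphocytes. It had 0 estimated counts in all 3 SH_E2 libraries, against 63, 154 and 112 in NC_E2 (1.08, 3.42 and 1.90 FPKM). In SH it had 0, 12 and 4 counts, against 38, 256 and 149 in NC (0.701, 4.37 and 2.33 FPKM). The highest library of the hairpin arm was thus below the lowest of the other 18. With a floor of 12 estimated counts per library, its SH_E2 level was at least 10.1-fold lower than the NC_E2 mean. It was at least 13.4-fold lower than the ICI_E2 mean and at least 14.5-fold lower than the Tamo_E2 mean. Against the lowest library of NC_E2, ICI_E2 and Tamo_E2, the bounds were only 5.08-fold, 7.39-fold and 6.47-fold. Floors cover counting error only. Gzmc was a minor transcript where it was present, since the mean FPKM of Gzmb was 36.9 times that of Gzmc in NC_E2 and 26.8 times in NC. The longest coding transcripts of Gzmb and Gzmc have the same base at 76.2% of aligned positions. How reads shared between paralogs were counted is not given in the sources used here.

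Prf1 (ENSMUSG00000037202, chromosome 10, 61297833 to 61304680, plus strand, 3 exons) encodes perforin, through whose pores granzymes reach the cytosol. It had 15.9, 26.8 and 23.2 FPKM in SH_E2, against 24.7, 32.3 and 45.5 FPKM in NC_E2. The groups overlapped, although library for library SH_E2 was at 64.5%, 83.2% and 51.0% of NC_E2. In the main fit, which has no library block, the log2 fold change of -0.68 ± 0.31 (SE, 95% interval -1.34 to -0.03) did not pass (edgeR adjusted p = 0.211). With the library number as a block it passed, with the values given in the section on processing choices at the end. Prf1 stayed a well-expressed gene in the hairpin arm, at rank 2501 of the tested genes in SH_E2 and 1649 in NC_E2. Mean Gzmb was 0.310 times mean Prf1 in SH_E2 and 2.30 times in NC_E2, both in FPKM.

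Against the mean of ICI_E2 and Tamo_E2, Prf1 had a log2 difference of -0.72 ± 0.28 (adjusted p = 0.0941 in edgeR). In this comparison too, the hairpin vector and the drugs differed together. Same-numbered libraries deviated together here, and with the library number as a block the difference was -0.71 and passed (edgeR adjusted p = 2.10e-05). It also passed in DESeq2 (adjusted p = 0.0485). Without E2, Prf1 had 16.2, 28.0 and 24.4 FPKM in SH and 23.6, 35.1 and 38.5 FPKM in NC. Library 1 was the lowest for Prf1 in 8 of 8 groups, with 15.9 to 16.2 FPKM in the hairpin arm and 23.6 to 27.4 FPKM outside it. Outside the hairpin arm, library 1 was also the lowest for Gzmc in 6 of 6 groups. For Gzmb it was the lowest in 1 of 8. What the library number marks is not stated, and its part in these values was not tested.

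**Figure D2:**
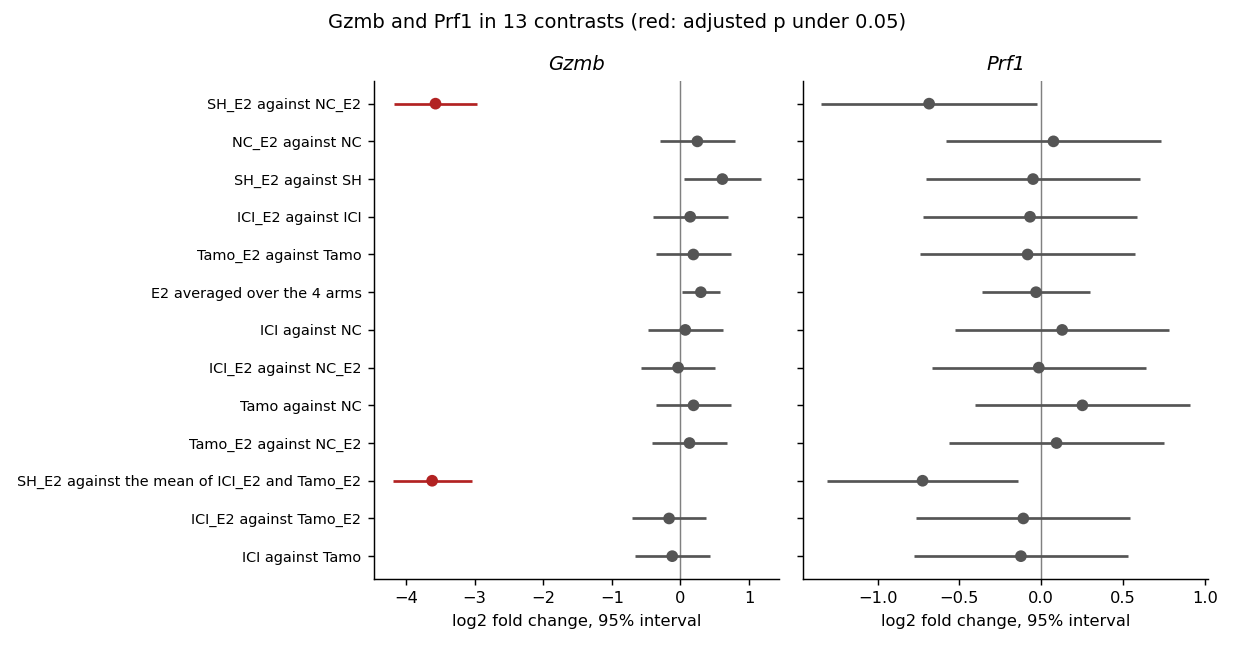
Log2 fold changes (first group over second) of Gzmb and Prf1 with 95% intervals, on separate axes. SH against NC and the hairpin effect with E2 minus without are left out. Contrasts shown that hold SH or NC, the E2 average among them, still share libraries with the comparison that chose the family. For Gzmb, 2 contrasts pass, both of SH_E2, at -3.57 and -3.62. For Prf1 none passes in the fit shown, which has no library block. Its lowest estimates, -0.68 and -0.72, belong to the same contrasts.

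Gzmm (ENSMUSG00000054206, chromosome 10), granzyme M, a protease with a preference for methionine and leucine, was detected in all 24 libraries but at 13 to 114 estimated counts. It had 0.940, 0.479 and 0.705 FPKM in SH_E2, against 0.312, 0.379 and 0.491 FPKM in NC_E2. In SH it had 1.27, 0.632 and 0.499 FPKM, against 0.421, 0.679 and 0.391 FPKM in NC. The groups overlapped in both pairs, and only 1 library of the 24 reached 1 FPKM, so Gzmm was not in the main fit. In a fit with no FPKM filter, chosen after seeing the data, its log2 fold change in SH_E2 over NC_E2 was 0.79 ± 0.51 (SE, 95% interval -0.26 to 1.83, edgeR adjusted p = 0.596 over 28735 genes). It did not pass there, where 1.66% of genes passed as higher. Its group means put SH (0.801 FPKM) and SH_E2 (0.708 FPKM) at the top, with each neighbour in the order overlapping the next.

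The other members gave little or no signal. Gzmf, granzyme F, had at most 22 counts, in 7 libraries spread over 5 groups of which none was SH_E2 or NC_E2. Gzma, granzyme A, a tryptase that is abundant in killer cells, had 8 counts in Tamo library 2 and 0 in the other 23. Gzmd, Gzme, Gzmg and Gzmk had 0 counts in all libraries, as did the further cluster granzyme Gzmn, which is not among the 10. The longest coding transcripts of Gzmd and Gzme share 94.8% of aligned bases, and those of Gzmf and Gzmg 88.7%, so the few Gzmf counts are uncertain as to gene.

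With E2, Gzmb was slightly higher in these libraries, which is a description only, since no change passed correction over all genes. Of the 12 pairs of same-numbered libraries, Gzmb was higher with E2 in 12, by ratios between 1.01 (NC library 2 and ICI library 3) and 2.32 (SH library 1). Scaled by TMM instead, the 12 ratios ran from 1.01 to 2.32 as well. Of all tested genes, 0.213% were higher with E2 in all 12 pairs. This count was made after the values were seen, and the SH and NC libraries in it also served to choose the family. In the ICI and Tamo arms alone, Gzmb was higher with E2 in 6 of 6 pairs. The share of all genes higher in those 6 pairs was not counted, so nothing is read from it. Averaged over the 4 arms, the log2 fold change was 0.30 ± 0.13 (95% interval 0.02 to 0.57), with an unadjusted p of 0.0350 in edgeR's fit, and did not pass after adjustment over all genes. The average, like the SH and NC changes given below, uses the libraries that chose the family. Its interval and p are therefore not read as support. In that average 0.0575% of genes passed, with 295 at an unadjusted p under 0.05.

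**Figure D3:**
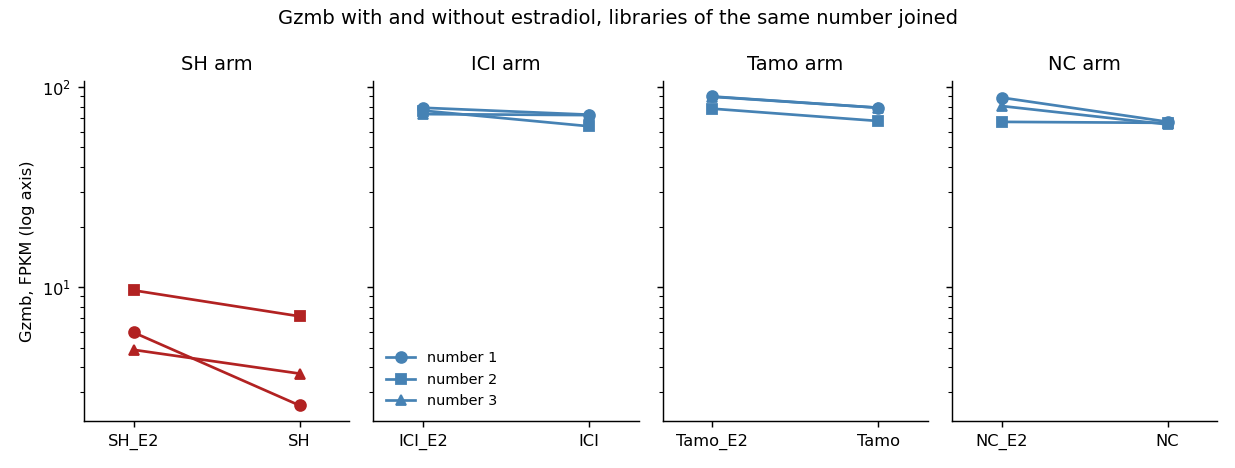
Gzmb FPKM (log axis) with E2 on the left and without it on the right in the SH, ICI, Tamo and NC arms, with libraries of the same number joined. All 12 lines slope down from the E2 side, by ratios of 1.01 to 2.32.

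By arm, the log2 change of Gzmb with E2 was 0.61 ± 0.27 in SH, 0.14 ± 0.26 in ICI, 0.19 ± 0.26 in Tamo and 0.25 ± 0.26 in NC. None passed. In edgeR 0% of genes did so in each arm, and an unadjusted p under 0.05 was reached by 163, 224, 434 and 244 genes in that order of arms. Prf1 was higher with E2 in 3 of the 12 pairs, and its averaged change was -0.03 ± 0.16 (95% interval -0.36 to 0.30). Gzmc had 1.57, 4.01 and 2.86 FPKM in ICI_E2 and 1.08, 2.87 and 3.81 FPKM in ICI, and 1.38, 5.09 and 2.63 FPKM in Tamo_E2 and 1.22, 2.01 and 3.41 FPKM in Tamo. These groups overlapped. The log2 change of Gzmc with E2 was 0.13 ± 0.75 in ICI, 0.45 ± 0.75 in Tamo and -0.22 ± 0.75 in NC, intervals too wide to place a direction.

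No member passed between an inhibitor arm and the vector control, with or without E2. Gzmb had 78.9, 76.3 and 73.3 FPKM in ICI_E2 and 89.8, 78.0 and 89.5 FPKM in Tamo_E2, beside the NC_E2 values given above. The log2 difference from NC_E2 was -0.03 (95% interval -0.58 to 0.51) for ICI_E2 and 0.13 (-0.41 to 0.68) for Tamo_E2. Without E2, Gzmb had 72.9, 63.8 and 72.5 FPKM in ICI and 78.9, 67.7 and 78.9 FPKM in Tamo, with differences from NC of 0.07 (-0.47 to 0.61) and 0.19 (-0.35 to 0.73). Prf1 differed from NC_E2 by -0.01 (-0.67 to 0.64) in ICI_E2 and by 0.09 (-0.56 to 0.75) in Tamo_E2. Gzmc differed from NC_E2 by 0.42 ± 0.75 (SE) in ICI_E2 and by 0.52 ± 0.75 in Tamo_E2. EdgeR called 0% of genes for ICI_E2 against NC_E2 (175 at an unadjusted p under 0.05) and 0% for Tamo_E2 against NC_E2 (301), and 0.00821% for ICI against NC and for Tamo against NC. Since only NC is labelled with a vector, drug and vector cannot be told apart here.

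ICI-182780, a steroid, and tamoxifen, a non-steroidal triphenylethylene, were compared directly in 2 pairs, with E2 and without, at doses the labels do not give. With E2, the log2 difference of ICI_E2 from Tamo_E2 was -0.17 (95% interval -0.71 to 0.38) for Gzmb, -0.11 (-0.76 to 0.55) for Prf1 and -0.11 (-1.68 to 1.47) for Gzmc. Without E2, that of ICI from Tamo was -0.12 (-0.66 to 0.42) for Gzmb, -0.12 (-0.78 to 0.53) for Prf1 and 0.21 (-1.37 to 1.80) for Gzmc. No difference passed, which does not show that the compounds act alike. In both pairs edgeR called 0%, while 246 genes with E2 and 392 without it had an unadjusted p under 0.05.

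The cluster that holds Gzmb and Gzmc did not move as a block. It spans 320.809 kb and holds 15 genes of the protease family, of which 7 are granzymes, and 6 of the 15 were tested. Gzmb lies at its end, with a gap of 24.182 kb to Gzmc. Beside Gzmb and Gzmc, 3 of the 4 tested protease neighbours were higher in SH_E2. Mcpt8, a basophil protease gene, had 31.3, 52.4 and 41.3 FPKM in SH_E2, against 7.88, 10.8 and 16.2 FPKM in NC_E2. Mcpt2, a mucosal mast cell chymase gene, had 26.8, 17.4 and 11.0 FPKM in SH_E2, against 8.73, 7.67 and 5.76 FPKM in NC_E2. Ctsg, cathepsin G, had 608, 608 and 497 FPKM in SH_E2, against 393, 260 and 274 FPKM in NC_E2. These 3 genes passed as higher, as did 5.3% of all tested genes. The log2 fold changes were 1.79 ± 0.38 for Mcpt8, 1.26 ± 0.29 for Mcpt2 and 0.84 ± 0.25 for Ctsg (edgeR adjusted p = 0.00407, 0.00678 and 0.0362 in the same order). Cma1, the connective tissue mast cell chymase, had 2.92, 2.19 and 2.68 FPKM in SH_E2, against 3.99, 3.39 and 3.54 FPKM in NC_E2, and did not pass (-0.54 ± 0.25, edgeR adjusted p = 0.224). The only other tested gene inside the span, the predicted gene Gm5801, changed by -0.11 and did not pass. Of 27 tested genes within 500 kb on either side of the cluster, 0 were higher and 1 was lower, Pck2 (-0.42 ± 0.11, edgeR adjusted p = 0.0210), and all lay between -0.45 and 0.55.

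**Figure D4:**
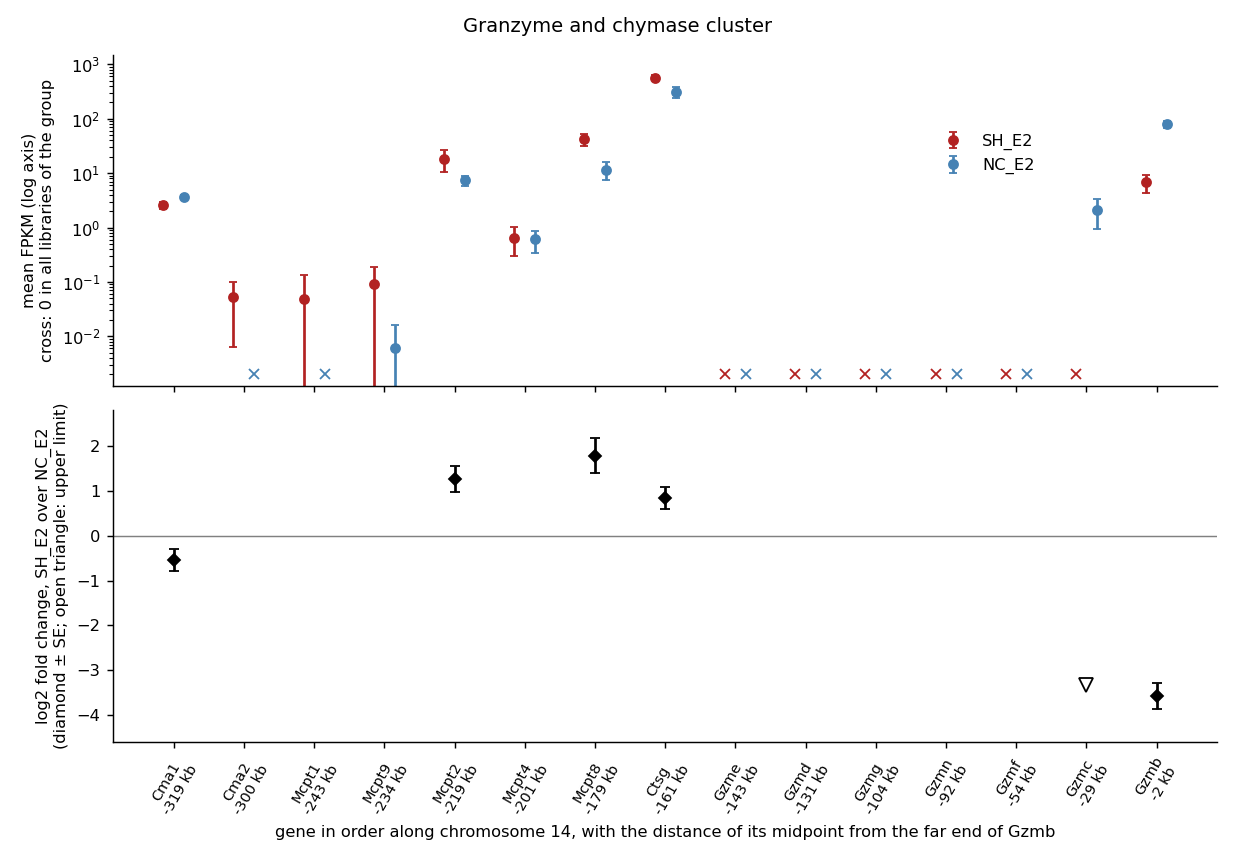
The 15 genes of the cluster in chromosome order, with mean FPKM ± SD in SH_E2 and NC_E2 (upper, log axis, crosses for 0 in all 3 libraries) and the log2 fold change ± SE of the tested genes (lower). Mcpt2, Mcpt8 and Ctsg lie above 0 and Gzmb at -3.57, while the triangle of Gzmc marks an upper limit from the floor of 12 counts.

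Genes that act around the granzymes were taken from lists drawn from textbook roles, with the median log2 fold change of all tested genes at -0.00416 (SH_E2 over NC_E2). Of the 23 tested transcription factors, 0 were higher and 3 lower in SH_E2, beside 5.3% higher and 4.28% lower of all tested genes. Jun, an AP-1 subunit, had 4.40, 7.52 and 5.66 FPKM in SH_E2, against 20.1, 35.8 and 34.7 FPKM in NC_E2 (a log2 difference of -2.41 ± 0.29, adjusted p = 1.55e-05 in edgeR). Junb, another AP-1 subunit, changed by -0.97 ± 0.13, and Id2, an inhibitor of helix-loop-helix factors, by -1.83 ± 0.34 (edgeR adjusted p = 5.85e-05 and 0.00117 in the same order). The RUNX genes did not pass: Runx3 averaged 24.3 ± 1.55 FPKM in SH_E2 and 24.1 ± 1.06 FPKM in NC_E2 (SD, n = 3 each), and Runx1 changed by -0.12 ± 0.16. Tbx21, the T-bet gene that drives granzyme expression in killer lymphocytes, had 8 to 16 counts in SH_E2 and 0 to 4 in NC_E2, too few for a test. The list's median was -0.13. Whether any of these factors acts on the granzyme promoters was not tested.

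Of 10 tested maturation and storage genes, 2 were higher and 3 lower in SH_E2 (median -0.22), beside the same 5.3% and 4.28% of all genes. Srgn, serglycin, averaged 97.5 ± 9.96 FPKM in SH_E2 and 152 ± 13.2 FPKM in NC_E2 (log2 fold change -0.69 ± 0.17). The granule membrane gene Lamp1 (-0.43 ± 0.08) and Calr, calreticulin, a partner of perforin in granules (-0.36 ± 0.10), were also lower. Cst7, cystatin F, an inhibitor of cathepsin C, was higher (0.51 ± 0.09), as was Igf2r, a sorting receptor for lysosomal enzymes (2.45 ± 0.30). Ctsc itself, cathepsin C, did not pass (-0.32 ± 0.18, edgeR adjusted p = 0.326). Of 10 tested granule exocytosis genes, 4 were higher (5.3% of all genes) and 0 lower (4.28%), with a median of 0.09. They were Rab27a (0.88 ± 0.27), Unc13d (0.53 ± 0.14), Vamp8 (0.46 ± 0.14) and Snap23 (0.44 ± 0.12), all parts of the docking and fusion machinery.

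Of 4 tested protease inhibitors, 1 was higher and 1 lower (median -0.04), where 5.3% of all genes were higher and 4.28% lower. Serpina3g averaged 10.6 ± 6.80 FPKM in SH_E2 and 0.396 ± 0.0760 FPKM in NC_E2 (log2 fold change 4.70 ± 0.95), and Serpinb6a changed by -0.56 ± 0.12. The NC_E2 level of Serpina3g lay under the 1 FPKM of the filter, so the size of its change is uncertain. Serpinb9, the granzyme B inhibitor that shields killer cells from their own protease, averaged 3.90 ± 0.742 FPKM in SH_E2 and 5.03 ± 0.196 FPKM in NC_E2 and did not pass (-0.42 ± 0.16, edgeR adjusted p = 0.121). Of the 14 tested targets of granzymes in the attacked cell, 1 was higher and 0 lower (median 0.05), a share near the 5.3% and 4.28% of all genes. It was Casp8, an initiator caspase (0.42 ± 0.13). Of the 2 other cytotoxic effectors tested, Tnf was lower, at 16.0 ± 6.06 FPKM in SH_E2 and 46.7 ± 12.9 FPKM in NC_E2 (-1.59 ± 0.40, edgeR adjusted p = 0.0139), and the list's median was -0.54.

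Of the 14 tested mast cell markers, 1 was higher and 4 lower in SH_E2 (median -0.21), against 5.3% higher and 4.28% lower of all genes. Cpa3, a granule carboxypeptidase, changed by 1.18 ± 0.28. Mrgprb1, a receptor gene of this list, changed by -5.56 ± 0.28, the tryptases Tpsb2 and Tpsab1 by -3.40 ± 0.71 and -2.43 ± 0.47, and Il1rl1, the interleukin-33 receptor, by -1.07 ± 0.25. Over all libraries Mrgprb1 ran from 0.0379 to 6.03 FPKM and Tpsb2 from 0 to 1.476 FPKM. Their changes thus rest on SH_E2 values near 0, their sizes are uncertain, and the count of 4 lower is not read as support. Kit did not pass (-0.17 ± 0.17). Over all 17 markers the summed level was 1046.5 to 1213 FPKM in SH_E2 and 759.5 to 1014 FPKM in NC_E2. Cpa3 alone gave 586, 499 and 529 FPKM of it in SH_E2, and 306, 188 and 195 FPKM in NC_E2. The higher sum therefore does not show that the markers rose as a set. Of the T and natural killer cell markers 2 were tested and 0 passed (median -0.45), and of the macrophage, B cell and neutrophil markers none could be tested. The part of these marker shifts in the granzyme values was not tested. For E2 averaged over the 4 arms, edgeR called 0 genes of any of these lists.

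Tested genes were ranked by how closely their level ran with that of Gzmb over the 24 libraries, leaving out predicted and clone names. At the top were Cpvl, a carboxypeptidase-like gene (Pearson r = 0.984 on log2(FPKM + 1)), Nxf7 (0.983), Prxl2a (0.979), Mtss1 (0.974) and Nfil3, a leucine zipper factor (0.973). Over the 18 libraries outside the hairpin arm the same genes had r of 0.24, 0.59, 0.50, 0.38 and 0.23, so the likeness rested mostly on the gap between the hairpin arm and the rest. Cpvl averaged 11.7 ± 1.01 FPKM in SH_E2 and 104.1 ± 13.5 FPKM in NC_E2, and Nfil3 averaged 45.1 ± 7.41 FPKM in SH_E2 and 106.6 ± 9.06 FPKM in NC_E2 (SD, n = 3 each). Over all tested genes, predicted and clone names included, 106 had an r over 0.9 with Gzmb. Gzmc had r of 0.825 over all libraries and -0.221 over the 18, and Prf1 0.653 and -0.097. Libraries of an arm share their vector or drug, so these values describe the groups and carry no test.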

How the data were processed

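Per the submitters' processing notes, reads were adapter-trimmed (cutadapt) and aligned by HISAT2 to GRCm38. No source used here names the program that made the table. It was deposited by the authors and gives, for 24 libraries, FPKM and unnormalized counts per gene, named so in the file headers; columns of other samples number 0. The deposited counts were taken as estimated counts, since a value of 4 makes up 16.2% of values from 1 to 40. An FPKM of 1e-04, a placeholder for no signal, was set to 0. Genes with at least 1 FPKM in at least 3 libraries were fitted with edgeR 4.0.16 (R 4.3.3, TMM factors 0.969 to 1.05, quasi-likelihood, 1 coefficient per group, no library block), and a call needed a Benjamini-Hochberg adjusted p under 0.05 over all 12183 genes. An SE was obtained by dividing the size of the log2 fold change by the root of its F statistic. Alternatives used DESeq2 1.42.0 and limma 3.58.1 on log2(FPKM + 1) or log2(FPKM + 0.1), as well as other scalings, filters and left-out libraries. The fit was tested on simulated data.

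The library numbers come from the sample titles. Same-numbered libraries deviated together, with a correlation over 0.1 in every pair, for E2 in each of the 4 arms (lowest 0.145), SH, ICI and Tamo against NC, Tamo_E2 against NC_E2, ICI against Tamo with and without E2, and SH_E2 against the mean of ICI_E2 and Tamo_E2 (lowest 0.131). They did not, by that measure, for SH_E2 against NC_E2 (lowest 0.0967), ICI_E2 against NC_E2 (lowest 0.0949) and, across arms, E2 averaged (lowest -0.0225). With 3 libraries against 3 an exact permutation test could not go below 0.1, so none was used.

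Members and gene lists were chosen with earlier results of these data known. Genes named from each list were up to 4 that passed in SH_E2 against NC_E2; other list genes were named after their values were seen. Genes like Gzmb were the 5 with the highest Pearson r among those whose symbol is no predicted or clone name. Promoters are from RefSeq (GRCm38.p6), and gene positions and transcripts are from GENCODE M21.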

Additional observations from a re-analysis of the deposited data

How the results depend on the processing

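The count of members called was within 1.5 times its main value in 105 of 105 alternatives and 117 of 117 left-out libraries, summed over 15 contrasts. With 3 members tested, a rise from 2 called to 3 lies within that range. The count therefore cannot show a call gained by Prf1. It also holds Gzmc and the contrast SH against NC, so it is not read as support. For SH_E2 against NC_E2, Gzmb passed in the 7 alternatives and without each of the 6 libraries. Gzmb ran from -3.93 to -3.37 without 1 library. Its adjusted p ran from 3.28e-37 (DESeq2) to 5.52e-06. Where edgeR called 0 members, DESeq2 and limma also called 0. The alternatives for Prf1 were chosen after seeing the data. With the replicate block, Prf1 passed for SH_E2 against NC_E2 (-0.67, edgeR adjusted p = 0.000194). Its adjusted p in the other alternatives there ran from 0.135 to 0.613. The correlations of same-numbered libraries in that contrast ran from 0.0967 to 0.329. Prf1 also had -0.56 with the block for SH against NC. Beside these and the comparison with ICI_E2 and Tamo_E2 given above, the block changed no call of Gzmb, Gzmc or Prf1. With log2(FPKM + 0.1), 3 of the 5 genes most like Gzmb stayed among the 5. Gzmc in Tamo against NC turned to 0.055 with limma on log2(FPKM + 0.1) and 0.11 with the block; the cause was not tested.

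Without 1 library, small differences that did not pass changed sign, with these lowest and highest log2 values. Gzmc ran from -0.72 to 0.47 for NC_E2 against NC, -0.24 to 0.53 for ICI_E2 against ICI, -0.15 to 0.92 for Tamo_E2 against Tamo, -0.37 to 0.75 for ICI against NC, -0.62 to 0.54 for Tamo against NC, -0.081 to 1.03 for Tamo_E2 against NC_E2, -0.46 to 0.50 for ICI_E2 against Tamo_E2 and -0.19 to 0.69 for ICI against Tamo. Prf1 ran from -0.20 to 0.27 for NC_E2 against NC, -0.25 to 0.15 for SH_E2 against SH, -0.26 to 0.13 for ICI_E2 against ICI, -0.32 to 0.11 for Tamo_E2 against Tamo and -0.10 to 0.020 for E2 averaged. It ran from -0.074 to 0.32 for ICI against NC, -0.21 to 0.26 for ICI_E2 against NC_E2, -0.13 to 0.37 for Tamo_E2 against NC_E2, -0.30 to 0.11 for ICI_E2 against Tamo_E2, -0.33 to 0.066 for ICI against Tamo and -0.32 to 0.15 for the hairpin effect with E2 minus without. Gzmb ran from -0.14 to 0.051 for ICI_E2 against NC_E2. For Gzmc, SH_E2 against SH, E2 averaged and the hairpin effect with E2 minus without were not recomputed, since SH_E2 and SH lay at or under the floor. Of the 7 members outside the main fit, 6 had too few counts for a comparison, and Gzmm is given above without the filter.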
